A study of Arvicanthis niloticus with 59 samples.

Results

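The trachea of a diurnal rodent, Arvicanthis niloticus, known as the Nile grass rat, was compared with a library of the same series that carries the genes of the gas-exchanging part of the lung. The members of this comparison were 2 of the 59 RNA-seq libraries of the series. The first is labelled trachea and comes from animal T173F. The second is labelled liver, from the biggest lobe of animal T3F, and was chosen by its measured levels of the surfactant genes Sftpc and Sftpb, so those levels are given as a description and support nothing. Its label is kept as given, and it is called the T3F library labelled liver throughout. Both tissues were healthy and untreated biopsies, and their own labels state neither sex nor age. Other labels of the series assign an ovary to each of T173F and T3F, so by label both animals were female. Each library was made from polyadenylated RNA of a single animal, so there was 1 library per tissue, and the 2 tissues came from different animals. Organ and animal therefore cannot be told apart, no test was possible, and every difference below is a description of these 2 libraries.

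The trachea is the conducting tube of the airway. Its wall holds rings of hyaline cartilage, smooth muscle and submucosal glands, and its lining is a pseudostratified epithelium of basal, ciliated and secretory cells that carries mucus and antimicrobial proteins upwards. The alveoli are lined by flat type 1 cells, through which gas diffuses, and by cuboidal type 2 cells, which secrete surfactant, the film of phospholipids and surfactant proteins that lowers surface tension. A dense capillary bed wraps each alveolus. Club cells, the secretory cells marked by Scgb1a1, are found in both the large airways and the bronchioles inside the lung.

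The label of the second library was checked against its markers before anything else. The surfactant protein genes Sftpc, Sftpb, Sftpa1 and Sftpd stood at 23830, 3284, 1770 and 1911 TPM in the T3F library labelled liver (TPM is a transcript level scaled by transcript length and by library total), and each was the highest of all 59 libraries there. Alb, which encodes serum albumin, the main secreted protein of hepatocytes, reached 398.3 TPM. In the library labelled lung T3F it reached 71560 TPM, and in the library labelled liver T426 54240 TPM. Over 16 hepatocyte genes the T3F library labelled liver held between 0.405% and 6.71% of the level found in the library labelled lung T3F, with a median of 0.842%. By these hepatocyte genes alone, which the choice did not use, the content goes against the label, and the library labelled lung of the same animal carries them. Within the comparison itself, the 16 hepatocyte genes summed to 48.48 TPM in trachea and 1196 TPM in the T3F library labelled liver. Of the 16, 0 were at least 4-fold higher in trachea and 13 in the T3F library labelled liver as deposited (0 and 10 relative to the median gene). By their mean log2 level the T3F library labelled liver ranked 5 of 59. The source of these low hepatocyte levels was not tested. Whether the 2 labels were exchanged was not tested. The tracheal label met its cartilage and gland markers, which were high there, as described below. Ciliated cell genes were present too, but their sum of 1208 TPM was under the 6548 TPM of ovary T173F. Sftpc, whose level chose the other library, had 0 counts in trachea, which is given as a description only.

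Depth differed between the libraries. The trachea library held 8148952 expected counts (estimated read counts per gene, which need not be whole) and the T3F library labelled liver 18692802, against 678819 to 41309569 over the series. The smallest level taken as detected, 3 counts, corresponded to 0.368 CPM (counts scaled to the library total) in trachea and 0.16 CPM in the T3F library labelled liver. Genes with at least 1 TPM numbered 14029 and 14647. Mitochondrial genes took 1.917% and 1.914% of TPM. A few genes dominated trachea, where the 5 most abundant genes took 35.32% of TPM, compared with 9.738% in the T3F library labelled liver. The intervals given beside folds are 95% Clopper-Pearson intervals on counts and cover counting error only, not the spread between animals.

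Far more genes were higher in the T3F library labelled liver than in trachea when levels were taken as deposited. Of 15852 genes with at least 1 TPM in either library, 1078 (6.8%) were at least 4-fold higher in trachea and 3120 (19.7%) at least 4-fold higher in the T3F library labelled liver, on the log2(TPM + 1) scale. This balance moved with the scaling. The median gene was 2.03-fold lower in trachea (log2 ratio -1.02), beside the 22.12% of tracheal TPM that a single gene, Dcpp1, took up. Relative to that median gene, 1947 genes (12.3%) were at least 4-fold higher in trachea and 1105 (6.97%) at least 4-fold higher in the T3F library labelled liver. TMM scaling of the counts gave 1296 and 1145 genes, and TPM without mitochondrial genes and the 10 most abundant genes gave 1437 and 2249. Of the 1078 genes, 82 had 0 counts in every other library and rested on 1 to 20 counts each. For these reasons each count below is given both as deposited and relative to the median gene, in that order. Counts within a list are to be read against these shares, over the genes of the list that also passed the 1 TPM filter. That number is given where it is under the list's size, and list medians are taken over it.

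**Figure D1:**
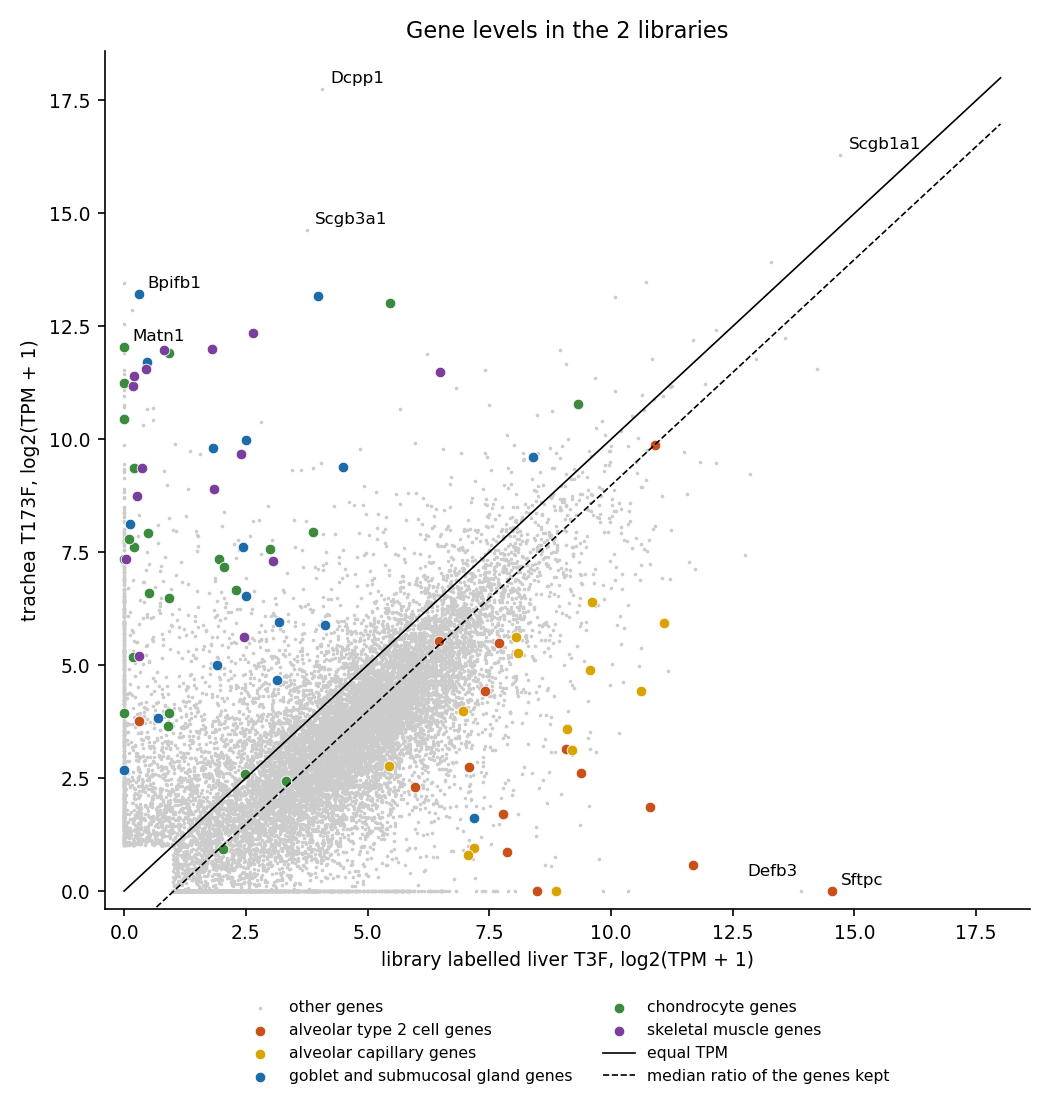
Each point is a gene with at least 1 TPM in either library, plotted by its log2(TPM + 1) level in the T3F library labelled liver (x axis) and in trachea (y axis), with 5 marker lists in colour. The solid line marks equal levels and the dashed line the median ratio of -1.02; chondrocyte and skeletal muscle genes lie along the tracheal side, and Sftpc and Defb3 lie on the x axis because they had 0 counts in trachea.

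By TPM, the most abundant tracheal transcript belonged to Dcpp1, a secreted protein known from salivary glands. It stood at 221200 TPM in trachea and 15.71 TPM in the T3F library labelled liver, a 14100-fold ratio (counting interval 9300 to 22500). Among the other 57 libraries the highest level was 6598 TPM, in femur bone T3F. Its share of tracheal counts was 2.47%, far under its 22.12% share of TPM, since TPM divides counts by transcript length, and by counts Dmbt1 (607891.7) and BC048546 (218209.9) exceeded it (201408.3). Dcpp genes occur as close copies in rodents, and the split of reads among them is uncertain.

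Scgb1a1, the club cell secretoglobin, was by TPM the most abundant gene of the T3F library labelled liver and the second most abundant of trachea. By counts, Sftpc (269101.3) exceeded it (100476) in the T3F library labelled liver. It stood at 79770 TPM in trachea and 26790 TPM in the T3F library labelled liver, a ratio of 2.98 (2.95 to 3.0) that missed the 4-fold line as deposited and passed it relative to the median gene. The next highest library of the series reached 4736 TPM, in rectum T173F. Both libraries thus carried club cell product, trachea more of it. Its relatives were more one-sided. Scgb3a1 stood at 25280 TPM in trachea and 12.48 TPM in the T3F library labelled liver, a 2030-fold ratio (1540 to 2730). Scgb3a2, whose product is also secreted by airway epithelium, stood at 3788 and 73.94 TPM, 51.2-fold apart (46.2 to 56.9). A pair of club cell enzymes differed less. The cytochrome P450 gene Cyp2f2 had 1031 TPM in trachea and 555.5 TPM in the T3F library labelled liver, and the carbonyl reductase gene Cbr2 had 4731 and 3275 TPM. Of 10 club cell genes, 4 were at least 4-fold higher in trachea and 1 in the T3F library labelled liver as deposited (5 and 0 relative to the median gene). For 6 of the 10 genes, trachea was the highest of 59 libraries.

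Goblet cell and submucosal gland genes were almost all on the tracheal side. Of 18 genes (17 past the filter), 13 were at least 4-fold higher in trachea and 1 in the T3F library labelled liver as deposited (16 and 1 relative to the median gene), with a median log2 ratio of 4.03 beside -1.02 over all genes. Their summed level was 26230 TPM in trachea and 570.8 TPM in the T3F library labelled liver. Bpifb1, a secreted lipid-binding protein of airway mucus, stood at 9523 TPM in trachea and at a single count, 0.2362 TPM, in the T3F library labelled liver, a ratio of 40300 (7240 to 1590000). Muc5b, the mucin of the normal airway, stood at 1006 and 4.696 TPM, 214-fold apart (194 to 238). Muc5ac, the other gel-forming airway mucin, was low in both, at 5.391 TPM in trachea and 0 counts in the T3F library labelled liver. Dmbt1, a scavenger protein of mucosal fluids, had 9260 TPM in trachea and 14.84 TPM in the T3F library labelled liver, a ratio of 624 (593 to 657). Tff2, a trefoil peptide that stabilises mucus, had 3341 TPM in trachea and 1 count in the T3F library labelled liver, an 8670-fold ratio (1560 to 343000), although glandular stomach T3F held far more, 13960 TPM. Agr2, an endoplasmic reticulum protein needed for mucin folding, had 276.3 and 0.08123 TPM. Muc16, a membrane mucin, had 195.2 and 4.406 TPM, and trachea was the highest of 59 libraries for it. The exception was Slpi, a protease inhibitor of mucosal secretions, with 2.052 TPM in trachea and 145.4 TPM in the T3F library labelled liver, 70.8-fold the other way (27.5 to 261). Its tracheal value rested on 4 counts.

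Other secreted products separated the libraries just as far. Wfdc18, a small whey acidic protein family member, had 11330 TPM in trachea and 0 counts in the T3F library labelled liver, at least 2000-fold higher against a floor of 3 counts. Ovary T173F also held it, at 3658 TPM. BC048546 had 7410 TPM in trachea and 0.1129 TPM in the T3F library labelled liver, a 65600-fold ratio (28100 to 202000), and was next highest in ovary T173F at 1493 TPM. Lipf, known as the gastric lipase, had 3820 TPM in trachea and 0 counts in the T3F library labelled liver, at least 2810-fold higher, with no more than 127.5 TPM anywhere else in the series.

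Innate defence genes were split between the libraries. Of 24 genes (22 past the filter), 10 were at least 4-fold higher in trachea and 5 in the T3F library labelled liver as deposited (11 and 3 relative to the median gene). Lyz2, the lysozyme gene that in rodents marks myeloid cells and is also made in airway glands, stood at 11390 TPM in trachea and 1674 TPM in the T3F library labelled liver, 6.81-fold apart (6.74 to 6.88). Trachea was the highest of 59 libraries for it, above 2421 TPM in femur bone T3F. Reg3g, an antibacterial lectin, had 1997 TPM in trachea and 0 counts in the T3F library labelled liver, at least 3670-fold higher. Bpifa1, an airway surface protein, had 2177 TPM and 0 counts, at least 1860-fold higher. Lcn2, which binds bacterial siderophores, had 900.0 and 2.526 TPM, a 356-fold ratio (216 to 637). Pigr, which carries polymeric immunoglobulin across epithelium, had 663.2 and 21.55 TPM, while Jchain, the joining chain of that immunoglobulin, was closer at 556.3 and 332.2 TPM. Ccl28, a chemokine that attracts antibody-secreting cells to mucosae, had 149.2 and 0.4339 TPM. On the other side stood Defb3, an antimicrobial beta-defensin, with 15400 TPM in the T3F library labelled liver and 0 counts in trachea, at least 2380-fold lower in trachea. The highest level of Defb3 elsewhere was 83.74 TPM, in spleen T3F. Defensins and the Bpif genes have close copies, so their values are uncertain.

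Motile cilium genes were present in both libraries and somewhat higher in trachea. Of 39 ciliated cell genes (38 past the filter), 8 were at least 4-fold higher in trachea and 0 in the T3F library labelled liver as deposited, and 23 and 0 relative to the median gene, so the count depended on the scaling. The median log2 ratio was 1.44, and the summed level was 1208 TPM in trachea and 509.9 TPM in the T3F library labelled liver. Foxj1, the transcription factor that commits cells to motile cilia, had 30.01 and 6.36 TPM, 4.72-fold apart (4.07 to 5.49). Sntn, a protein of the ciliary tip, had 120.7 and 2.653 TPM, and Cfap126, a ciliary basal body protein, had 168.3 and 20.18 TPM. Rsph1, a radial spoke head protein, had 68.63 and 9.365 TPM. Among the other 57 libraries, ovary T173F was the highest for Foxj1, Sntn, Cfap126 and Rsph1, and reached 210.4 TPM for Foxj1 and 887.2 TPM for Cfap126. Tppp3, a tubulin-binding protein, ran the other way with 51.39 TPM in trachea and 133.4 TPM in the T3F library labelled liver.

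Basal cell genes, which mark the progenitors of the pseudostratified epithelium, were mostly higher in trachea. Krt17 had 136.7 TPM in trachea, the highest of 59 libraries, and 1 count in the T3F library labelled liver (ratio 382, interval 68.0 to 15200). Krt15 had 326.5 and 35.98 TPM, 9.07-fold apart (7.83 to 10.6), and Krt14 had 67.17 and 6.422 TPM. Krt5, the usual basal cell marker, was closer at 115.2 and 52.24 TPM, 2.2-fold apart (2.0 to 2.43). Trp63, the transcription factor of basal cells, had 15.73 and 1.749 TPM. Of 16 basal cell genes, 7 were at least 4-fold higher in trachea and 1 in the T3F library labelled liver as deposited (9 and 1 relative to the median gene). The 1 gene on the other side was Bcam, a laminin receptor that is also found on endothelium, with 45.8 and 421.3 TPM. Cornified squamous genes stayed low: Krt13 had 22.55 TPM in trachea against 34010 TPM in the esophageal junction T3F, and Ivl, Sprr3 and Crnn had 0 counts in both libraries.

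Rarer epithelial cells gave small values. Of 10 tuft cell genes (9 past the filter), 0 were at least 4-fold higher in trachea and 6 in the T3F library labelled liver as deposited (0 and 4 relative to the median gene). Gnat3, the taste-type G protein alpha subunit of these chemosensory cells, had 57.51 TPM in the T3F library labelled liver, the highest of 59 libraries, and 0 counts in trachea. Trpm5, the cation channel of the same pathway, had 7.71 TPM there and 0.04825 TPM in trachea. The neuroendocrine peptide gene Calca had 35.91 TPM in trachea and 10.68 TPM in the T3F library labelled liver. Among 8 ionocyte genes (7 past the filter), the transcription factor Foxi1 had 2.589 and 1.287 TPM, and the chloride channel gene Cftr had 1.121 TPM in trachea and 15.88 TPM in the T3F library labelled liver.

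Cartilage genes were almost all on the tracheal side. Of 25 chondrocyte genes, 21 were at least 4-fold higher in trachea and 0 in the T3F library labelled liver as deposited (22 and 0 relative to the median gene), with a median log2 ratio of 5.41. Their summed level was 24550 TPM in trachea, 731.3 TPM in the T3F library labelled liver and at most 5509 TPM elsewhere, in the right atrium T3F. Matn1, the cartilage matrix protein matrilin-1, had 4209 TPM in trachea and 0 counts in the T3F library labelled liver, at least 2640-fold higher. Ucma, a small cartilage matrix protein, had 2418 TPM and 0 counts, at least 515-fold higher. Acan, the large aggregating proteoglycan of cartilage, had 1406 TPM and 0 counts, at least 12500-fold higher. Col2a1, the main collagen of hyaline cartilage, had 655.5 and 0.1434 TPM, a ratio of 4570 (2220 to 11400). Col10a1, the collagen of hypertrophic chondrocytes, had 3822 and 0.8939 TPM, a ratio of 4280 (2450 to 8270). Sox9, the transcription factor that directs chondrocytes and is also made in airway glands, had 142.2 and 3.138 TPM, 45.3-fold apart (30.7 to 69.8). Trachea was the highest of 59 libraries for 12 of the 25, and femur bone T3F was the next highest for Matn1, Ucma, Acan and Col10a1. The 4 genes that did not reach 4-fold as deposited were Sox5, Sox6, Matn4 and Fmod.

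The wider matrix lists share members with the chondrocyte list. Of 43 collagens (42 past the filter), 15 were at least 4-fold higher in trachea and 6 in the T3F library labelled liver as deposited (20 and 4 relative to the median gene). Col1a1, the collagen of fibrous tissue, had 449.9 and 62.96 TPM. On the other side, Col4a3, of the alveolar and glomerular basement membrane, had 0.9415 TPM in trachea and 62.26 TPM in the T3F library labelled liver. Among 34 proteoglycans and matrix enzymes the counts were 6 and 4 (11 and 2 relative to the median gene), with Omd, a small leucine-rich proteoglycan, at 885.7 and 27.86 TPM. Most general fibroblast genes were less than 4-fold apart. Dcn stood at 496.4 and 531.0 TPM and Lum at 232.7 and 242.8 TPM, and of 17 genes 1 was at least 4-fold higher in trachea and 3 in the T3F library labelled liver (4 and 1 relative to the median gene).

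**Figure D2:**
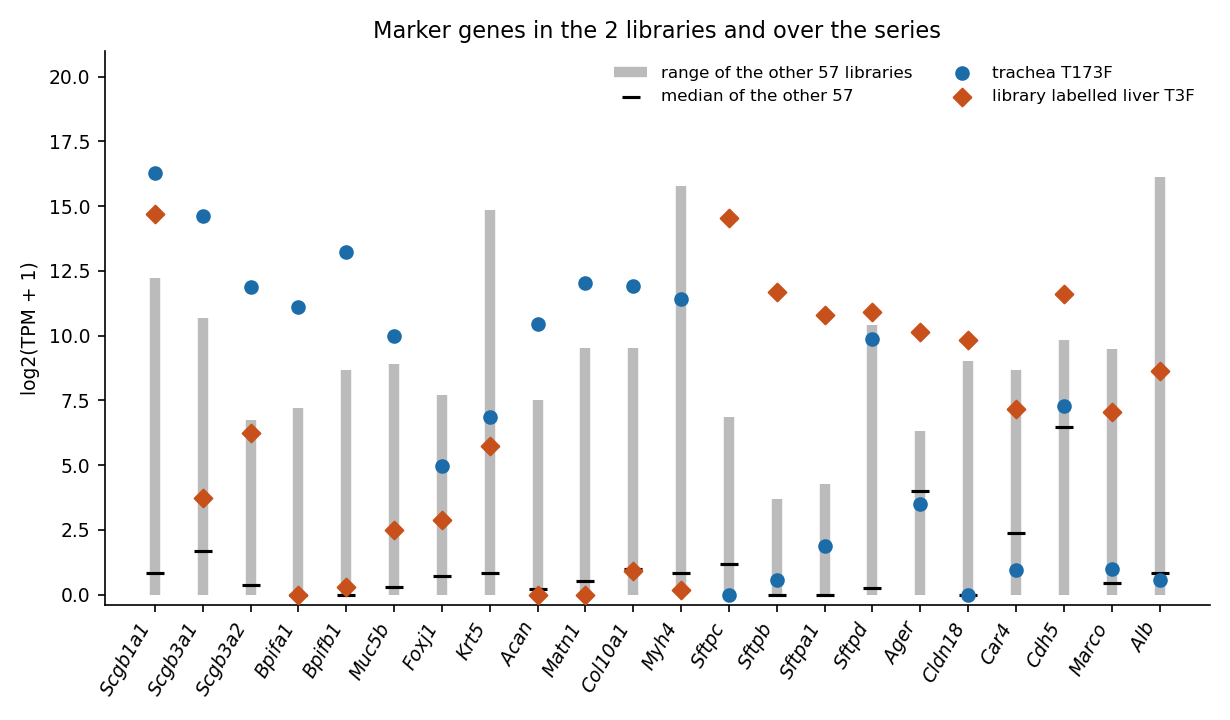
Levels of 22 marker genes on a log2(TPM + 1) axis, with a point for trachea and a point for the T3F library labelled liver, a grey bar for the range of the other 57 libraries and a black tick for their median. Scgb1a1 is high in both libraries, Sftpc is at 0 in trachea and 23830 TPM in the T3F library labelled liver, and Acan and Matn1 show the reverse; Alb lies far below the top of its grey bar in both.

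Markers of tissues that lie outside the airway lining were also high in the tracheal library. All 15 skeletal muscle genes were at least 4-fold higher in trachea under both scalings, with a median log2 ratio of 8.47. Their summed level was 27060 TPM in trachea, 116.8 TPM in the T3F library labelled liver and 243600 TPM in femoral skeletal muscle T3F. Myl1, a fast muscle light chain, had 2783 TPM in trachea and 0 counts in the T3F library labelled liver, at least 6780-fold higher. The fast myosin heavy chain Myh4 had 2699 and 0.1463 TPM, a ratio of 18500 (6310 to 89500), though the myosin heavy chains share long similar stretches and the split among them is uncertain. Ckm, the muscle creatine kinase, had 4075 and 2.486 TPM. Adipocyte genes were also higher in trachea for 6 of 8 as deposited and 8 of 8 relative to the median gene, with sums of 742.0 and 54.17 TPM. The fat hormone Adipoq had 206.8 TPM in trachea and 0 counts in the T3F library labelled liver. Among thyroid genes, thyroglobulin, Tg, had 61.04 TPM in trachea and 10.37 TPM in the T3F library labelled liver, while Slc5a5, Duox2 and Foxe1 were near or at 0 in both. Pancreatic enzyme genes reached 4-fold in trachea for 7 of 9, led by Ctrb1 at 90.7 TPM and 0 counts, where pancreas T3F held 197300 TPM. The part of these tissues in the tracheal values was not tested. Fewer cells of a type and less RNA per cell cannot be told apart in any of these bulk libraries.

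Smooth muscle, which closes the back of the tracheal rings and surrounds bronchi and vessels, had its main contractile genes less than 4-fold apart. Acta2, smooth muscle actin, had 497.8 and 362.4 TPM, and the smooth muscle myosin Myh11 had 70.64 and 40.72 TPM. Of 13 genes (12 past the filter), 3 were at least 4-fold higher in trachea and 2 in the T3F library labelled liver as deposited (5 and 0 relative to the median gene). Des was among the 3, at 1724 and 178.6 TPM, and it is also a gene of skeletal muscle.

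The surfactant protein genes, with Sftpc and Sftpb among them by choice, lay mostly on the other side. Sftpc, the hydrophobic surfactant protein made by type 2 cells, had 23830 TPM in the T3F library labelled liver and 0 counts in trachea, at least 59800-fold lower in trachea. Sftpb had 3284 TPM and 0.4943 TPM, a 6640-fold ratio (3050 to 18100). Sftpa1, a collectin of surfactant, had 1770 and 2.656 TPM, 666-fold apart (495 to 921). Sftpd, the other lung collectin, did not follow them. It had 934.5 TPM in trachea and 1911 TPM in the T3F library labelled liver, a ratio of 2.04 (1.97 to 2.12) that was nil relative to the median gene (log2 -0.01), and colon T3F held 1376 TPM. Surfactant protein genes were thus not equally one-sided.

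The machinery around the surfactant proteins lay on the same side. Lamp3, a membrane protein of the lamellar bodies in which surfactant is stored, had 231.3 TPM in the T3F library labelled liver and 0.8154 TPM in trachea, 284-fold apart (172 to 507). Slc34a2, the phosphate transporter of type 2 cells, had 665.4 and 5.147 TPM, 129-fold apart (111 to 152). Abca3, the lipid transporter of lamellar bodies, had 135.3 and 5.687 TPM, and Napsa, a protease that processes Sftpb, had 541.6 and 7.818 TPM. Napsa was not limited to this library, since spleen T3F held 433.0 TPM. Cxcl15, the chemokine known as lungkine, had 357.2 TPM and 0 counts in trachea, with at most 1.559 TPM elsewhere. Of 15 type 2 cell genes, 1 was at least 4-fold higher in trachea and 12 in the T3F library labelled liver as deposited (1 and 10 relative to the median gene). Without Sftpc and Sftpb, whose levels chose the library, the 13 others gave 1 and 10 (1 and 8), with a median log2 ratio of -4.35. The T3F library labelled liver was the highest of 59 libraries for 10 of these 13. The gene on the tracheal side was Dlk1, at 12.48 and 0.2313 TPM. The broader surfactant list of 26 genes, which adds lipid synthesis enzymes, had 0 and 15 as deposited and 0 and 11 relative to the median gene, and without those 2 genes 0 and 13 of 24 (0 and 9). Its lipogenic members were close: Fasn had 19.16 TPM in trachea and 43.62 TPM in the T3F library labelled liver, and Scd1 had 201.1 and 476.7 TPM.

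Type 1 cell genes also lay mostly on the side of the T3F library labelled liver. Of 15, 1 was at least 4-fold higher in trachea and 13 in the T3F library labelled liver, the same counts under both scalings, with a median log2 ratio of -5.05. Ager, the receptor that marks the basal surface of type 1 cells, had 1141 TPM in the T3F library labelled liver and 10.37 TPM in trachea, 110-fold apart (96.7 to 126). Akap5, a scaffold for protein kinase A, had 865.3 and 0.6438 TPM, a ratio of 1340 (525 to 4930). Hopx, a homeodomain protein of type 1 cells, had 331.5 and 5.129 TPM, and the membrane protein gene Pdpn had 2371 and 119.7 TPM. Aqp5, the water channel of type 1 cells and of airway glands, was level in the 2 libraries at 443.0 and 424.5 TPM (ratio 1.04, interval 0.985 to 1.11), and the cornea T3F exceeded both with 9765 TPM. Igfbp2, an insulin-like growth factor binding protein, was the gene on the tracheal side, at 75.12 TPM against 13.17 TPM.

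**Figure D3:**
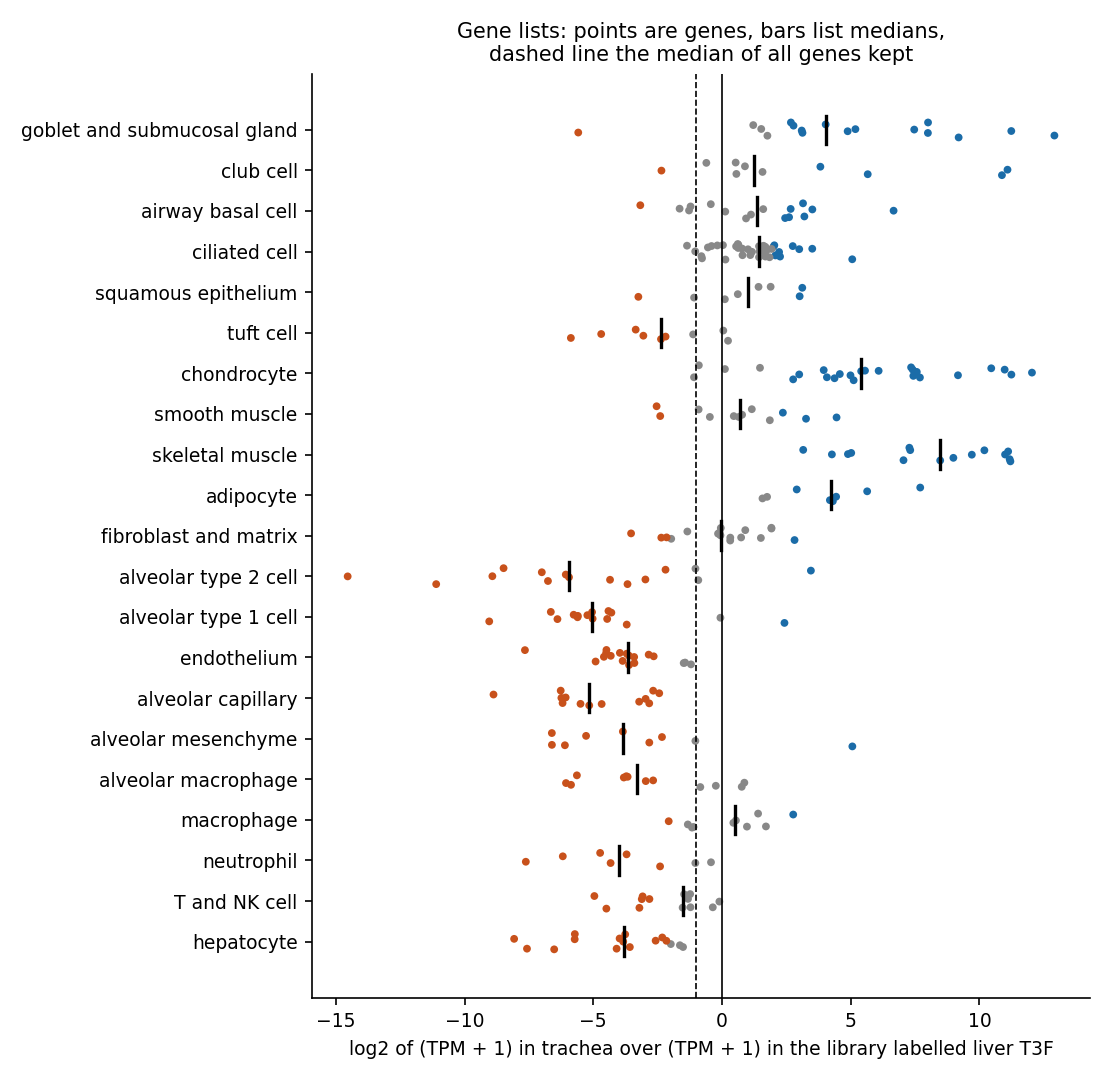
Each point is a gene of 1 of 21 lists, placed by its log2 ratio of TPM + 1 in trachea over the T3F library labelled liver, with a bar at the median of each list and a dashed line at the median gene (-1.02). Skeletal muscle (median 8.47), chondrocyte (5.41) and goblet and gland genes (4.03) lie to the right, and alveolar type 2 (-5.94, or -4.35 without Sftpc and Sftpb), alveolar capillary (-5.16) and alveolar type 1 genes (-5.05) to the left.

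Most endothelial genes were higher in the T3F library labelled liver. Of 18 pan-endothelial genes, 0 were at least 4-fold higher in trachea and 15 in the T3F library labelled liver as deposited (0 and 13 relative to the median gene). Their sums were 821.6 and 13440 TPM, and the T3F library labelled liver was the highest of 59 for 14 of them. Cdh5, the cadherin of endothelial junctions, had 154.6 TPM in trachea and 3109 TPM in the T3F library labelled liver, 20.1-fold apart (18.7 to 21.7). Pecam1, another junction protein, had 54.21 and 717.0 TPM. Calcrl, the receptor for adrenomedullin, was the extreme member, with 2.711 and 746.7 TPM, 275-fold apart (209 to 371), and at most 27.59 TPM in the other 57 libraries. Of the genes known from the alveolar capillary bed, all 13 were at least 4-fold higher in the T3F library labelled liver as deposited, and 9 relative to the median gene. Their sum in sciatic nerve T3F was 6811 TPM, beside 319.4 TPM in trachea and 7876 TPM in the T3F library labelled liver. The T3F library labelled liver was the highest of 59 for 7 of the 13. Car4, a membrane carbonic anhydrase on the aerocyte type of capillary cell, had 144.3 TPM there and 0.924 TPM in trachea, 156-fold apart (82.1 to 342). Apln, the ligand of the apelin receptor, had 468.7 TPM and 0 counts in trachea, at least 152-fold lower in trachea. Tmem100 had 1566 and 20.42 TPM, and Plvap, the diaphragm protein of fenestrae and caveolae, had 2190 and 60.4 TPM. The 3 pan-endothelial genes that did not reach 4-fold on the log2(TPM + 1) scale were Emcn (66.23 and 154.0 TPM), Nos3 (3.737 and 12.29 TPM) and Sox17 (0.7755 and 3.798 TPM).

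Genes that endothelium uses to act on vessel tone and clotting followed the vascular lists. Of 27 vasoactive and haemostasis genes, 0 were at least 4-fold higher in trachea and 15 in the T3F library labelled liver as deposited (1 and 10 relative to the median gene). Thbd, the thrombomodulin gene, had 6861 TPM in the T3F library labelled liver and 173.2 TPM in trachea, 39.6-fold apart (36.3 to 43.4), with at most 736.1 TPM elsewhere. Ace, the angiotensin-converting enzyme that is dense on lung capillaries, had 584.4 and 7.697 TPM, 75.9-fold apart (67.3 to 85.9). The prostaglandin carrier Slco2a1 and the enzyme Hpgd, which together remove prostaglandins from blood, had 219.9 and 171.8 TPM against 2.065 and 5.118 TPM. Vipr1, a receptor for vasoactive intestinal peptide, had 551.9 and 14.76 TPM. The cyclooxygenase gene Ptgs1 was less than 4-fold apart, at 13.58 TPM in trachea and 36.39 TPM in the T3F library labelled liver.

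Mesenchymal genes of the alveolar wall showed the same side. Of 9, 1 was at least 4-fold higher in trachea and 7 in the T3F library labelled liver as deposited (1 and 5 relative to the median gene). Npnt, a basement membrane ligand, had 827.1 TPM in the T3F library labelled liver and 7.478 TPM in trachea, 111-fold apart (90.2 to 137), and its receptor subunit Itga8 had 422.5 and 5.165 TPM. Tcf21, a transcription factor of lipofibroblasts, had 401.1 and 9.348 TPM. Fgf10, the growth factor of distal lung mesenchyme, was less apart, at 112.0 and 54.18 TPM. Inmt, an N-methyltransferase abundant in lung of some species, was higher in trachea, at 163.7 TPM against 3.927 TPM.

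The immune cell lists did not all lie on one side. Of 16 listed alveolar macrophage genes, 12 were in the data, which lacked the symbols Chil3, Ear1, Ear2 and Siglec5. Of the 12, 0 were at least 4-fold higher in trachea and 8 in the T3F library labelled liver as deposited (0 and 6 relative to the median gene). Their sums were closer, at 1055 TPM in trachea and 1258 TPM in the T3F library labelled liver. The scavenger receptor gene Marco had 131.7 TPM there and 0.9899 TPM in trachea, 133-fold apart (61.0 to 363), and the integrin gene Itgax had 123.1 and 1.495 TPM. General macrophage genes gave 1 and 1 of 10 (3 and 0 relative to the median gene), with Csf1r at 104.2 TPM in the T3F library labelled liver and 40.92 TPM in trachea, and C1qb at 90.08 and 239.6 TPM. Clec4n, the fungal receptor dectin-2, had 376.7 TPM and 0 counts in trachea, at least 87.4-fold lower in trachea. Neutrophil genes stood at 0 and 6 of 10, 8 of them past the filter (0 and 5 relative to the median gene), with S100a9 at 588.3 and 7.105 TPM. For 13 T and NK cell genes the counts were 0 and 6 (0 and 5), with the granzyme gene Gzma at 96.96 and 2.152 TPM. B and plasma cell genes moved with the scaling, at 0 and 4 of 8 (7 past the filter) as deposited and 0 and 0 relative to the median gene. Their sum was 599.3 TPM in trachea and 392.1 TPM in the T3F library labelled liver. Jchain, described above, made up most of both sums, and the other genes together were lower in trachea. Mast cell and eosinophil genes lay on the tracheal side. Of 10 (5 past the filter), 2 were at least 4-fold higher there and 0 in the T3F library labelled liver (4 and 0 relative to the median gene), with Cpa3, the mast cell carboxypeptidase, at 62.0 and 1.742 TPM. The antigen presentation list moved with the scaling, at 0 and 7 of 10 as deposited and 0 and 1 relative to the median gene. Its sum was lower in trachea, at 698.3 TPM against 4113 TPM in the T3F library labelled liver. Haemoglobin was higher in the T3F library labelled liver, with Hba-a2 at 12170 and 4845 TPM and Hbb-bs at 19200 and 3018 TPM, and its close copies make single values uncertain. How much of the immune and endothelial difference went with blood content was not tested.

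Transcription factors were split between the libraries. Of 50 factors known from airway and lung (45 past the filter), 13 were at least 4-fold higher in trachea and 13 in the T3F library labelled liver as deposited (16 and 8 relative to the median gene). Nkx2-1, which specifies the respiratory endoderm, was present in both, at 19.06 TPM in trachea and 183.9 TPM in the T3F library labelled liver, 9.65-fold apart (8.22 to 11.4). These were the second highest and the highest levels of 59 libraries. Sox2, the factor of the proximal airway, had 144.2 TPM in trachea and 11.76 TPM in the T3F library labelled liver, 12.3-fold apart (8.89 to 17.3). Pax9, a factor of the foregut and of tracheal cartilage, had 91.28 TPM and 0 counts, at least 238-fold higher. Pitx1, Barx1 and Isl1, further factors of foregut or mesoderm, had 20.3, 30.73 and 18.42 TPM in trachea, and at most 0.04499 TPM in the T3F library labelled liver. Foxf1, which marks lung mesenchyme and endothelium, had 1032 TPM in the T3F library labelled liver and 31.69 TPM in trachea, 32.6-fold apart (25.0 to 43.2). Tbx4 and Tbx2, T-box factors of lung mesenchyme, had 74.49 and 134.0 TPM against 3.061 and 4.015 TPM. The endodermal factors Foxa1 (36.75 TPM in trachea and 18.49 TPM in the T3F library labelled liver) and Grhl2 (9.825 and 8.742 TPM) differed by less than 4-fold under either scaling.

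Hox genes, which record position along the body axis, lay on both sides. Hoxb2, Hoxb3 and Hoxb4 had 35.21, 23.15 and 25.05 TPM in trachea and 38.73, 22.87 and 41.78 TPM in the T3F library labelled liver. In the HoxA cluster, Hoxa5, needed for the trachea and lung, had 8.154 TPM in trachea and 128.8 TPM in the T3F library labelled liver, 15.8-fold apart (11.7 to 21.9). Hoxa7 had 0.3182 and 57.45 TPM, and Hoxa6 had 0 counts and 18.57 TPM. Of 37 Hox genes (21 past the filter), 1 was at least 4-fold higher in trachea and 4 in the T3F library labelled liver as deposited (2 and 3 relative to the median gene). The 1 was Hoxd4, with 3.46 TPM on 14 counts in trachea and 0 counts in the T3F library labelled liver.

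**Figure D4:**
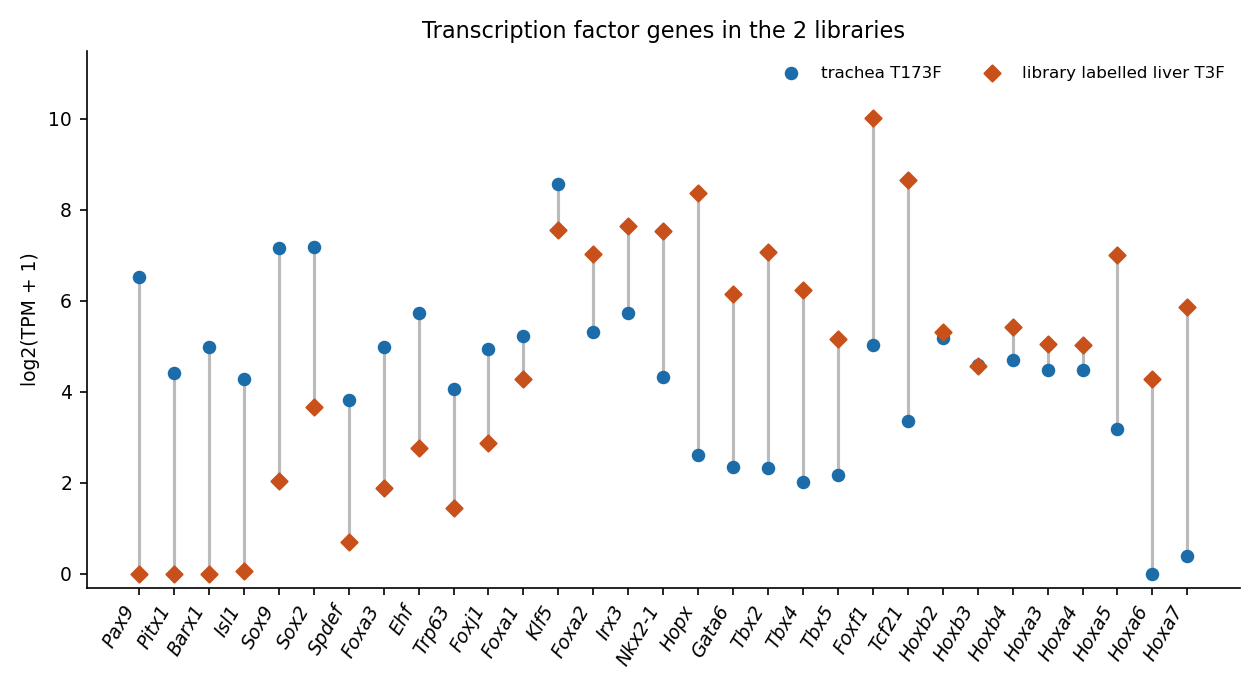
Levels of 31 transcription factor and Hox genes on a log2(TPM + 1) axis, with a point for trachea and a point for the T3F library labelled liver. Sox2, Sox9 and Pax9 are higher in trachea, Foxf1, Tbx4 and Hoxa5 are higher in the T3F library labelled liver, and Hoxb2 to Hoxb4 are close in both.

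Signalling genes lay on both sides. Among 33 Bmp and Tgfb genes (32 past the filter), 6 were at least 4-fold higher in trachea and 9 in the T3F library labelled liver as deposited (6 and 7 relative to the median gene). The receptors Bmpr2 (373.2 TPM) and Acvrl1 (294.8 TPM) and the inhibitory factor Smad6 (1001 TPM) were highest in the T3F library labelled liver, and stood at 13.87, 5.674 and 22.67 TPM in trachea. The secreted antagonist Grem1 lay on the other side, with 635.6 TPM in trachea, the highest of 59 libraries, and 9.952 TPM in the T3F library labelled liver, 63.9-fold apart (46.5 to 90.1). The antagonists Nog (41.12 and 3.356 TPM) and Fst (8.64 and 0.7208 TPM) did the same.

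For 26 Wnt genes (25 past the filter) the counts were 4 and 7 (7 and 3 relative to the median gene). The ligands Wnt2 and Wnt7a had 96.48 and 40.11 TPM in the T3F library labelled liver and 0 counts in trachea. Wnt5b, a ligand of cartilage and other mesenchyme, had 67.33 TPM in trachea, the highest of 59 libraries, and 7.039 TPM in the T3F library labelled liver. The secreted inhibitors split as well: Frzb had 368.1 TPM in trachea and 6.769 TPM in the T3F library labelled liver, and Wif1 had 68.45 and 541.6 TPM. In the Hedgehog list of 14 genes (13 past the filter), the ligand Shh had 324.3 counts in the T3F library labelled liver and 0 counts in trachea (at least 72.1-fold lower in trachea), and Hhip, a decoy receptor for it, had 71.57 and 0.3745 TPM. The counts there were 0 and 3 as deposited and 2 and 2 relative to the median gene. Fgf genes gave 0 and 3 of 17, 16 of them past the filter (1 and 0), with Fgfr4 at 29.05 TPM in the T3F library labelled liver and 4.035 TPM in trachea. Notch genes gave 0 and 7 of 20 (18 past the filter) as deposited and 0 and 1 relative to the median gene. The 1 gene was Dll4, the ligand of capillary endothelium, at 91.58 and 5.465 TPM. In either direction the Fgf and Notch lists thus held 1 such gene each relative to the median gene. The share over all genes was 19.3%.

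Ion transport and barrier genes showed a few large contrasts in otherwise similar lists. The epithelial sodium channel, which clears alveolar fluid, is built of 3 subunits encoded by Scnn1a, Scnn1b and Scnn1g. They had 210.4, 27.46 and 169.7 TPM in the T3F library labelled liver, and 34.88 TPM, 0.2857 TPM and 0 counts in trachea. Of 21 ion and water transport genes (19 past the filter), 1 was at least 4-fold higher in trachea and 7 in the T3F library labelled liver as deposited (4 and 3 relative to the median gene). Of 22 claudins, the tight junction proteins (16 past the filter), 3 and 3 passed (5 and 3). Cldn18, the claudin of alveolar epithelium and stomach, had 917.2 TPM in the T3F library labelled liver and 0 counts in trachea, at least 4040-fold lower in trachea, and glandular stomach T3F held 517.6 TPM. Cldn4 and Cldn8, of airway and other lining epithelia, had 78.88 and 25.46 TPM in trachea and 11.18 and 0.5125 TPM in the T3F library labelled liver. Of 20 keratins (19 past the filter), 7 were at least 4-fold higher in trachea and 4 in the T3F library labelled liver (10 and 4), and the simple keratins Krt8 and Krt18 differed by less than 4-fold, with 71.06 and 122.5 TPM and with 216.5 and 170.8 TPM. S100g, a calcium-binding protein, had 1298 TPM in the T3F library labelled liver and 0 counts in trachea, at least 214-fold lower in trachea, but duodenum T3F held 82600 TPM.

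Xenobiotic enzymes also lay on both sides. Cyp2a5, a cytochrome P450 known from nasal and airway mucosa and from liver, had 709.9 TPM in trachea and 15.41 TPM in the T3F library labelled liver, 46.1-fold apart (40.7 to 52.3). The level in trachea was the highest of 59 libraries, followed by the library labelled liver T426 (598.4 TPM). Fmo2, the flavin monooxygenase of lung, had 1170 TPM in the T3F library labelled liver and 66.97 TPM in trachea, 17.5-fold apart (16.5 to 18.5). Cyp1a1, which aromatic hydrocarbons induce, had 189.8 and 1.762 TPM. Of 28 genes, 2 and 7 passed as deposited (5 and 3 relative to the median gene).

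Immediate early genes, which cells switch on within minutes of a stimulus, were high in both libraries. Averaged over 15 such genes on the log2 scale, trachea ranked 1 and the T3F library labelled liver ranked 2 of 59 libraries. Fosb had 658.0 TPM in trachea and 13.79 TPM in the T3F library labelled liver, 47.7-fold apart (39.8 to 57.6), and Fos had 515.0 and 102.7 TPM. Jun was high in both, at 2017 and 1587 TPM, as was Dusp1 at 1998 and 2142 TPM. The counts were 3 and 1 (6 and 0 relative to the median gene). Cell cycle genes differed little: 0 and 1 of 18 passed as deposited and 1 and 0 relative to the median gene, with Mki67 at 3.026 TPM in trachea and 12.73 TPM in the T3F library labelled liver. Clock genes gave 0 and 3 of 16, 15 of them past the filter (0 and 0), and the hour of sampling is not given in the labels.

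Since the libraries came from 2 animals, the same 4-fold rule was applied to the sites that 2 animals supplied. Relative to the median gene of each pair, 19.3% of genes were at least 4-fold apart in either direction between trachea and the T3F library labelled liver (26.5% as deposited). Over 10 sites with libraries of 2 animals the share ran from 4.19% to 52.4%, with a median of 11.1%. All pairs but ovary and pancreas include animal T426, whose libraries were shallower, such as 2472766 counts in retina against 35863355 in T3F. The Y-linked gene Eif2s3y had 48.82 TPM in femur T426 and 0 TPM in femur T3F. Animal, depth and sex therefore cannot be told apart in the pairs with T426. T173F and T3F, the animals compared here, both supplied ovary and pancreas. For ovary the share was 12.3% (12.9% as deposited). Single genes differed widely between the ovary libraries of T173F and T3F. Foxj1 had 210.4 and 2.934 TPM, Wfdc18 had 3658 and 0 TPM, and Slc26a7 ran the other way with 10.2 and 202.6 TPM. Tissue content and animal therefore cannot be told apart in this pair. The highest share belonged to pancreas, where the T173F library held 1573234 counts. In that library, 54 genes with at least 10 TPM and 0 counts elsewhere took 380000 TPM on 1661 counts. The second highest, 24.6%, belonged to the pair labelled liver, which includes the T3F library labelled liver. Relative to the median gene the compared pair was above 8 of the 10 same-site pairs, and as deposited above 7, since femur (36.2%), pancreas (44.8%) and the pair labelled liver (49.2%) exceeded its 26.5%. Without the pair labelled liver, whose T3F member carries alveolar genes, it was above 8 and 7 of 9. The size of a difference between trachea and lung within an animal was not measured.

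**Figure D5:**
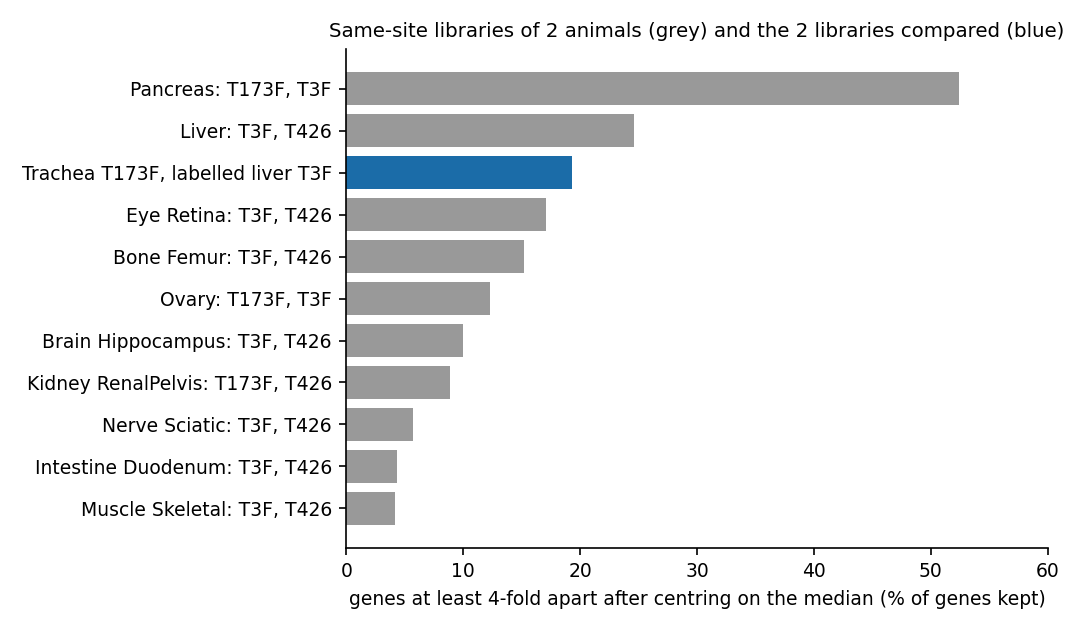
Percent of genes at least 4-fold apart in either direction, relative to the median gene of the pair, for 10 sites with libraries of 2 animals (grey bars) and for trachea against the T3F library labelled liver (blue bar, 19.3%). Only the pairs labelled liver (24.6%) and pancreas (52.4%) lie above the compared pair.

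Over all genes, neither library was the nearest of the other. The rank correlation of log2(TPM + 1) across genes, which are not replicates, was 0.724 between the 2 libraries. Trachea was nearest to the esophageal junction T3F (0.778) and femoral skeletal muscle T3F (0.764). The T3F library labelled liver was nearest to uterus T3F (0.850) and inguinal fat T3F (0.846). Its correlation was 0.742 with the library labelled lung T3F and 0.709 with the library labelled liver T426.

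Genes set apart from the rest of the series numbered 34 in trachea and 49 in the T3F library labelled liver, by the rule of at least 10 TPM, at least 30 counts and a level 4 times that of every other library. The 34 tracheal genes included Dcpp1, Scgb3a1, Scgb3a2, Bpifb1, Bpifa1, Lipf, Matn1, Ucma and Acan. They also held the odorant-binding proteins Obp1b (639.0 TPM) and Obp2a (144.8 TPM) and the lipocalin Lcn3 (1676 TPM). For 19 of the 34 (55.9%) the next highest library was femur bone T3F. The 49 genes of the T3F library labelled liver included Sftpc, Sftpb, Sftpa1, Ager, Thbd, Calcrl and Wif1. For 7 of the 49 (14.3%) the next highest was spleen T3F, and for Nkx2-1 it was trachea.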

How the data were processed

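The authors deposited a table of expected counts per gene and a table of TPM for all 59 libraries. Per the submitters' processing notes the tools were RSEM, with no version, and Bowtie 0.12.8. Genome build, annotation and use of strand were not given in the sources used here, so overlapping and antisense genes cannot be separated. Of the deposited expected counts in the 2 libraries, 57.56% were whole, with no fractional part. Symbols are in mouse form, and 14498 of 18970 matched the RefSeq table of assembly mArvNil1.pat.X. RSEM shares reads among near-identical copies.

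Folds are ratios of the TPM that the authors deposited. A gene was counted at an absolute log2((TPM + 1)/(TPM + 1)) of 2 or more, that is 4-fold, among genes with at least 1 TPM in either library. For folds given as at least a value, the library with 0 counts was set to a floor of 3 counts. The numbers of genes at least 4-fold apart used no such floor. Intervals are exact conditional binomial intervals (95%) on rounded counts. TMM factors came from edgeR 4.0.16 in R 4.3.3, and other steps from Python 3.11.15 with numpy 2.4.6, pandas 2.3.3 and scipy 1.17.1, tested on simulated data. Alternatives changed the scaling, pseudocount, filter, fold and depth.

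The members and the 58 gene lists were chosen with earlier results of these data known. Named genes were the 10 largest ratios per direction with at least 10 TPM and 30 counts and a symbol that is no clone name, the 5 most abundant genes of each library by TPM, and list members.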

Additional observations from a re-analysis of the deposited data

Results flagged for a closer look

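Airway secretory transcripts appeared in a library outside the comparison. In femur bone T3F, Scgb3a1 reached 1649 TPM, on 10447 counts, which is 6.52% of its tracheal level. Dcpp1 (2.98% of the tracheal level), Scgb1a1 (4.62%), Bpifb1 (3.5%), Bpifa1 (6.78%), Reg3g (7.14%) and Muc5b (2.4%) were present there too. In the second femur library, from T426, Scgb3a1 stood at 0.5286 TPM.

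Alveolar transcripts appeared in spleen T3F, where Sftpc reached 114.4 TPM on 1412.81 counts, 0.48% of its level in the T3F library labelled liver. Sftpb, Sftpa1, Sftpd and Defb3 stood at 0.365%, 0.463%, 0.458% and 0.544% of their levels there, and Scgb1a1 at 0.51%. Ager (5.3%) and Napsa (79.9%) stood higher.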

How the results depend on the processing

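The counts of genes at least 4-fold apart depended on the scaling, the pseudocount and the fold. Against 1078 genes higher in trachea and 3120 higher in the T3F library labelled liver, centring on the median gene gave 1947 and 1105, and TMM-scaled CPM in place of TPM gave 1296 and 1145 (53.1% of the calls in trachea, against 25.7% as deposited and 63.8% after centring). Removing mitochondrial genes and the 10 most abundant genes of each library gave 1437 and 2249, with 39.0% in trachea. A pseudocount of 5 gave 644 and 1504, a 2-fold line 1919 and 8044, an 8-fold line 673 and 1124, and counts thinned to equal totals, as CPM in place of TPM, 1041 and 1736 (37.5% in trachea). A pseudocount of 0.1 gave 1491 and 4226. A filter at 5 TPM, no filter, or a minimum of 10 counts, which was chosen after seeing the data, kept each count within 1.5 times. Of the 1276 counts for single lists under these settings, 1033 stayed within 1.5 times and 243 moved. The cause of these shifts was not tested beyond the construction of each setting. No paired analysis was possible, because there was 1 library per tissue and the 2 libraries came from different animals. Depth limits the tracheal zeros: 0 counts there allow up to 0.368 CPM.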

Other observations

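The tracheal library held 82 genes with at least 10 TPM and 0 counts in the other 58 libraries. They rested on 444 counts in all, 1 to 20 each, and 47 of them were olfactory receptor genes. Together they took 12020 TPM, with a highest value of 701.9 TPM. A count in these genes was worth 23.75 TPM at the median, against 0.06012 TPM over all genes of that library. All 82 were among the genes counted as at least 4-fold higher in trachea. The next libraries by this measure were pancreas T173F with 54 such genes and rectum T173F with 15. The T3F library labelled liver had 1.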
